A study of Mus musculus with 21 samples.

Results

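The neutrophil-attracting CXC chemokines Cxcl1, Cxcl2 and Cxcl3, and the related platelet factor Pf4, were followed across all treatment groups of a study of mouse macrophages. The 4 genes were taken by symbol from the 34573 genes of the deposited count table, and each was present. Bone-marrow-derived macrophages (BMDMs) are macrophages grown from marrow precursors, here from C57bl/6 mice 12 weeks old, for 6 days in L929 medium, which supplies the macrophage growth factor M-CSF. Succinate, an intermediate of the tricarboxylic acid cycle, or dimethyl malonate (DMM), a cell-permeable source of malonate, which inhibits succinate dehydrogenase, was given for 3 h before lipopolysaccharide (LPS), the bacterial ligand of Tlr4, was added or not. RNA was sequenced in bulk by a modified SmartSeq2 method, and 21 libraries were examined.

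At 48 h of LPS there were 2 libraries of cells given DMM first, 1 library of cells given succinate first and 2 libraries of cells given LPS alone. At 4 h of LPS there were 2 libraries with DMM first, 1 with succinate first and 2 with LPS alone. Without LPS there were 4 libraries with DMM, 4 with succinate and 3 untreated. Unstimulated columns carry a number from 1 to 4 that does not name the 4 h or the 48 h set, so each unstimulated treatment was taken as 1 group. Separate animals or cultures are not named for the replicates, and a p-value therefore speaks of the spread among these samples, possibly a technical one.

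These chemokines are small secreted proteins that guide leukocytes. Cxcl1, Cxcl2 and Cxcl3 act through the receptor Cxcr2, which neutrophils carry, and macrophages that sense LPS are known to transcribe them through NF-kB, a family of transcription factors that enters the nucleus when its inhibitor is degraded. Pf4 belongs to the same structural family and lies in the same gene cluster, but it lacks the motif that engages Cxcr2. It is stored in platelet granules, binds heparin-like sugar chains, and is also transcribed by macrophages.

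In the reference annotation the genes stand on chromosome 5 in the order Pf4, Cxcl3, Cxcl15, Cxcl1, Cxcl2. The promoters are shown because the 3 Cxcr2 ligands share runs of bases there that Pf4 lacks. Each window is 300 bases of RefSeq sequence on the plus strand of build GRCm38.p6, of which 250 lie before the transcription start and 50 begin at it. The windows lie at chr5:90890995-90891294 for Cxcl1, chr5:90903649-90903948 for Cxcl2, chr5:90785851-90786150 for Cxcl3 and chr5:90772185-90772484 for Pf4. Capitals mark the 3 runs of 8 or more bases common to all 3 ligand windows, and, in Pf4, the short run AGATAA, of the type that Gata1 recognises.
Cxcl1: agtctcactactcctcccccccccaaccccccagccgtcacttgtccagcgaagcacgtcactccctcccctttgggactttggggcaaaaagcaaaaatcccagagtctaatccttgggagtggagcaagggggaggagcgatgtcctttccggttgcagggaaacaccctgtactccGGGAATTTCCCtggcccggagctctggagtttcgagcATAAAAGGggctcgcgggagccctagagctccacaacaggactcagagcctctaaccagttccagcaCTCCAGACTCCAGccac
Cxcl2: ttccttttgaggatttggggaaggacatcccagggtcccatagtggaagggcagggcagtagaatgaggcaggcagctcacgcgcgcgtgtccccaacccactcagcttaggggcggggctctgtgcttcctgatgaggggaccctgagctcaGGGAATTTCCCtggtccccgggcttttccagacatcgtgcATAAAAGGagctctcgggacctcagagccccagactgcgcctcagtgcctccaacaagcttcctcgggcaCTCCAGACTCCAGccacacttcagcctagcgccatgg
Cxcl3: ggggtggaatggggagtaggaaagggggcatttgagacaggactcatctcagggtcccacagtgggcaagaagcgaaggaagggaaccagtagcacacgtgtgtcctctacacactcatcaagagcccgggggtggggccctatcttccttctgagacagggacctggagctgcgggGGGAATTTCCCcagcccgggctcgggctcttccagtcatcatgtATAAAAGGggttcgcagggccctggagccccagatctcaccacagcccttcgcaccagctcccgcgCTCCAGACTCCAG
Pf4: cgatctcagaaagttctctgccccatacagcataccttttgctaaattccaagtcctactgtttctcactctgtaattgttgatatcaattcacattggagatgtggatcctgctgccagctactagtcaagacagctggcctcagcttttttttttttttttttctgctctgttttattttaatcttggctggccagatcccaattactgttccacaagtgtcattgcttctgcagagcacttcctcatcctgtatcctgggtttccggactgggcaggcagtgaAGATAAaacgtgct

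The first common run, GGGAATTTCCC, holds a site of the NF-kB type. It began 71 bases before the start in Cxcl1, 97 in Cxcl2 and 73 in Cxcl3. Over all RefSeq promoter windows of this length, with both strands searched, 14 of 32851 held it (0.0426%). The second run, ATAAAAGG, is of the kind found where transcription machinery assembles. It followed 26 bases further on in Cxcl1, 29 in Cxcl2 and 33 in Cxcl3, and stood in 577 windows (1.76%). The third run, CTCCAGACTCCAG, lay in the transcribed part and stood in 4 windows (0.0122%), which belong to 4 genes, so 1 other gene held it. AGATAA was chosen after the Pf4 sequence was read, began 36 bases after the first transcribed base, and stood in 3672 windows (11.2%). The runs did not overlap one another. A match describes letters in these windows and does not show that a factor binds there.

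Total counts were 662186 to 1546867 per library. The library labelled LPS 48 h replicate 1 is kept apart throughout, because its counts were closest to those of an unstimulated DMM library: of 210 pairs of libraries these 2 had the smallest chi-square per degree of freedom (1.22, against 2.91 for the next pair). All 16 macrophage markers looked at were tested, and their summed level was 68140 to 186808 CPM (read counts after scaling for library size) over the other 20 libraries. Each of the 4 genes passed the filter on low counts, but Cxcl1 did so only through the 2 libraries given succinate and then LPS, and Cxcl3 only through those and 1 library given DMM and then LPS 4 h. Counts of these genes called are therefore descriptions of each comparison and not support for a shared behaviour.

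At 4 h of LPS, all 3 Cxcr2 ligands rose above levels at or near 0 in untreated cells. Cxcl1 and Cxcl3 held 0 counts in all 11 unstimulated libraries, where 3 counts would be 2.08 to 4.75 CPM. Cxcl2 held 0 counts in 9 of those 11 libraries, 4 counts in 1 DMM library and 1 count in 1 untreated library. The values of each gene in each library are plotted by treatment and time.

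**Figure D1:**
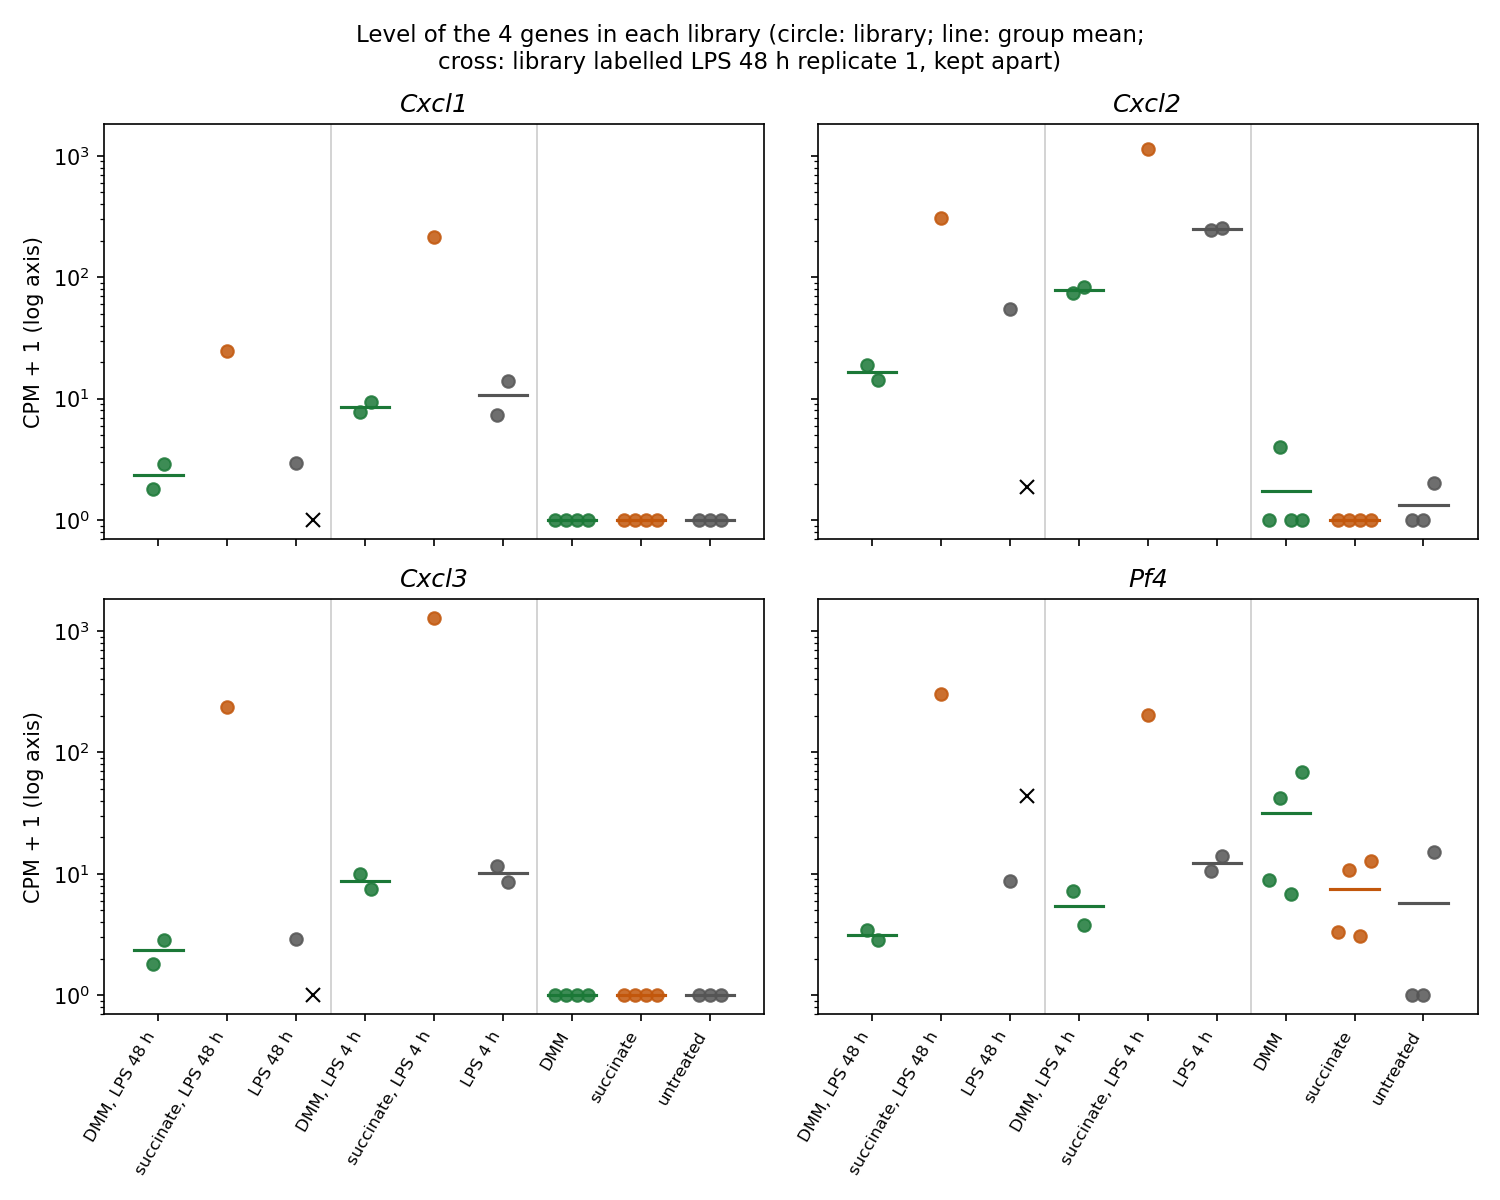
Level of Cxcl1, Cxcl2, Cxcl3 and Pf4 in each library, as CPM + 1 on a log axis, for 48 h of LPS, 4 h of LPS and no LPS. Circles are libraries, lines are group means, and the cross is the library labelled LPS 48 h replicate 1. The libraries given succinate and then LPS are the highest of each panel, and Pf4, unlike the others, has counts in most unstimulated libraries.

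After 4 h of LPS alone, Cxcl2 had 244 and 252 CPM, against 0, 0 and 1.01 CPM in untreated cells. Its scaled counts were 700.2 times those of untreated cells, with a 95% exact counting interval of 125 to 27714 set by the single untreated count. Cxcl1, a neutrophil attractant also known as KC in mice, had 6.40 and 12.9 CPM after 4 h of LPS, at least 9.07-fold higher than the untreated cells, which were at 0. Cxcl3 had 10.7 and 7.53 CPM, at least 8.57-fold higher. These bounds and all others here use a floor of 3 counts over the group. All 3 genes were called higher by edgeR's quasi-likelihood test with Benjamini-Hochberg adjustment over 6812 genes and a threshold of 0.05, with adjusted p = 9.01e-13 for Cxcl2, 0.000105 for Cxcl1 and 3.14e-05 for Cxcl3. Over all genes tested, 15.4% were called higher in this comparison.

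After 48 h of LPS alone the 1 usable library had 54.1 CPM of Cxcl2, against 0, 0 and 1.01 CPM in untreated cells. The ratio of scaled counts was 152.6 (exact counting interval 26.3 to 6135), with adjusted p = 3.75e-08 by edgeR. Cxcl2 was the only one of the 4 genes called higher, where 12.5% of all genes tested were called higher. Cxcl1 and Cxcl3 had 2 counts each in that library, below the floor.

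Among the ligands at 48 h of LPS alone, each level was lower than at 4 h, but no difference passed the test. Cxcl2 had 54.1 CPM at 48 h, against 244 and 252 CPM at 4 h, a log2 fold change of -2.20 ± 0.48 (SE, adjusted p = 0.112 by edgeR). With DESeq2 in place of edgeR the adjusted p was 0.0139, and without a filter on low counts it was 0.00417. Cxcl1 and Cxcl3 both had 1.93 CPM at 48 h, against 6.40 and 12.9 CPM of Cxcl1 and 10.7 and 7.53 CPM of Cxcl3 at 4 h. None of the 4 genes was called by edgeR, where 0.0147% of all genes were called in either direction. At an unadjusted p under 0.05 there were 3 of the 4, and DESeq2 called 1. The group at 48 h is 1 library, which the model assumes to vary like the other groups.

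The libraries of cells given succinate before LPS had the highest levels of all 3 ligands at both times, and Cxcl3 differed the most. At 4 h, Cxcl3 had 1276 CPM in the succinate-then-LPS library, against 10.7 and 7.53 CPM with LPS alone. In counts this was 991 reads, against 10 and 7 reads. The log2 fold change was 7.11 ± 0.40 (SE), with adjusted p = 8.48e-11 by edgeR. Cxcl1 had 215 CPM with succinate then LPS, against 6.40 and 12.9 CPM with LPS alone, a log2 fold change of 4.46 ± 0.44 (adjusted p = 1.12e-06 by edgeR). Cxcl2 had 1135 CPM, against 244 and 252 CPM, a log2 fold change of 2.19 ± 0.39 (adjusted p = 0.002 by edgeR). All 3 were called higher, where 0.528% of all genes tested were called higher. Cxcl1 passed the filter on low counts only through the 2 succinate-then-LPS libraries, and Cxcl3 through those and 1 DMM library. The count of 3 is therefore a description. The Cxcl2 call was lost when either LPS 4 h library was left out (adjusted p = 0.053 without replicate 1 and 0.0596 without replicate 2), at log2 fold changes of 2.18 and 2.22. With the library labelled LPS 48 h replicate 1 in the fit it was also lost (adjusted p = 0.878, log2 fold change 2.20).

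At 48 h the same order held. Cxcl3 had 237.5 CPM (209 reads) in the succinate-then-LPS library, against 1.93 CPM (2 reads) with LPS alone. The ratio of scaled counts was 123 (exact counting interval 33.6 to 1023), with adjusted p = 1.15e-06 by edgeR. Cxcl2 had 308 CPM, against 54.1 CPM, a log2 fold change of 2.51 ± 0.52 (adjusted p = 0.0177 by edgeR). With the library labelled LPS 48 h replicate 1 in the fit, the adjusted p of Cxcl2 was 0.321. Cxcl1 had 23.9 CPM (21 reads), against 1.93 CPM (2 reads), and did not pass the test (adjusted p = 0.0699 by edgeR), though it did without a filter on low counts (0.0281). The ratio for Cxcl1 was 12.4 (exact counting interval 3.02 to 108.8). Of all genes tested, 0.338% were called higher at 48 h, and the limit set by the filter on low counts holds here too. Each arm at 48 h is 1 library, so the spread comes wholly from the other groups, and counting intervals cover counting error only.

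**Figure D2:**
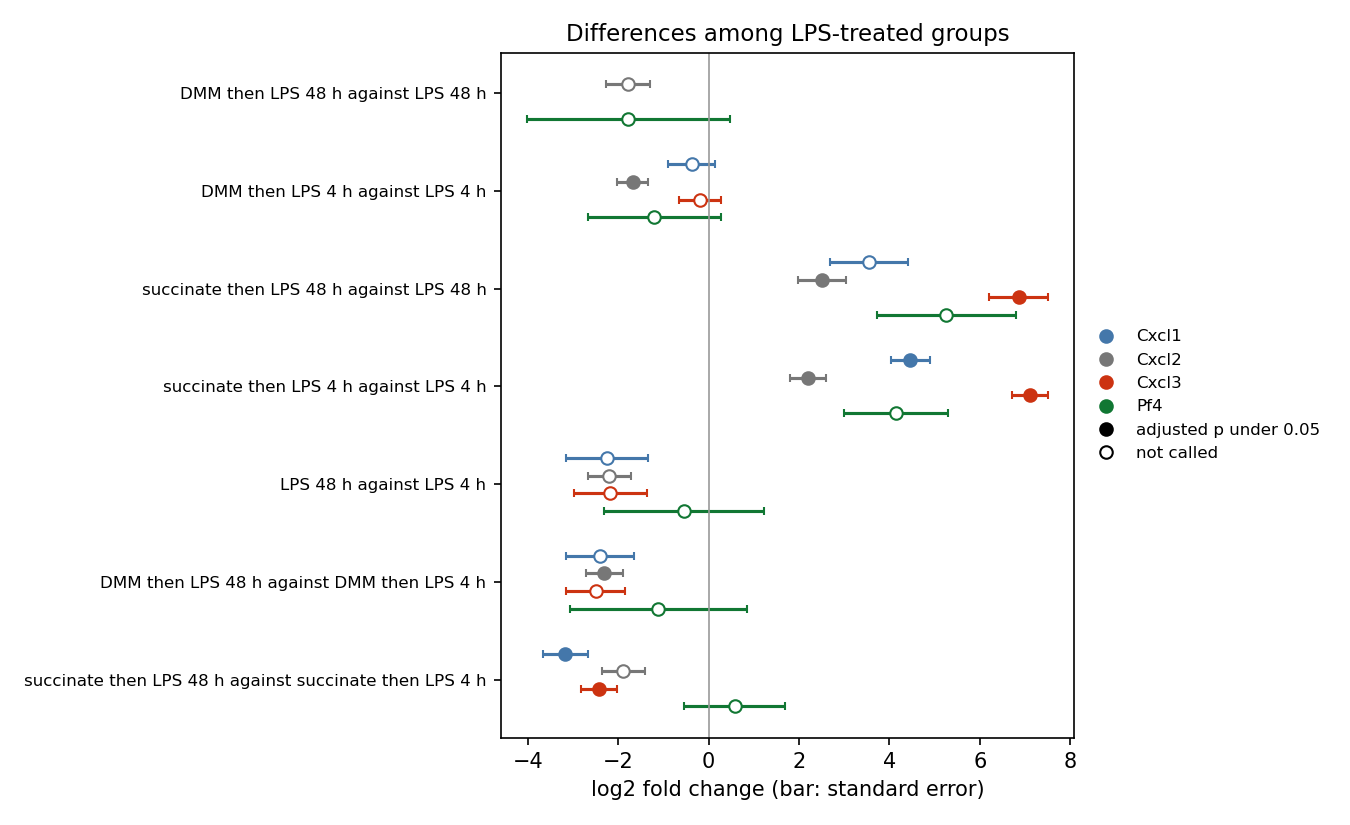
Log2 fold changes of the 4 genes among LPS-treated groups, with bars of 1 standard error and filled symbols where the edgeR adjusted p was under 0.05. Both comparisons of succinate then LPS with LPS alone lie right of 0 for all 4 genes, with Cxcl3 at 6.86 and 7.11. The DMM comparisons lie left of 0. For succinate then LPS at 48 h against 4 h, Cxcl1, Cxcl2 and Cxcl3 lie left of 0 and Pf4 lies right of it. Differences between arms of 3 counts or fewer are not drawn.

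The make-up of the ligands also differed. Of the summed counts of Cxcl1, Cxcl2 and Cxcl3, Cxcl3 gave 48.6% of 2040 in the succinate-then-LPS library at 4 h (95% exact Clopper-Pearson interval 46.4 to 50.8%). With LPS alone at 4 h it gave 4.08% of 245 (1.97 to 7.38%) and 2.77% of 253 (1.12 to 5.62%). At 48 h Cxcl3 gave 41.7% of 501 counts with succinate then LPS (37.4 to 46.2%), against 3.33% of 60 with LPS alone (0.406 to 11.5%). The intervals of the succinate-then-LPS libraries overlapped none of the LPS-alone ones, but they cover counting error only. Each succinate-then-LPS arm is 1 library, so the spread of its shares between libraries is not known. Cxcl2 gave 43.2% and 54.1% of the counts with succinate then LPS at 4 h and 48 h, against 92.5 to 93.5% in the 3 LPS-alone libraries.

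**Figure D3:**
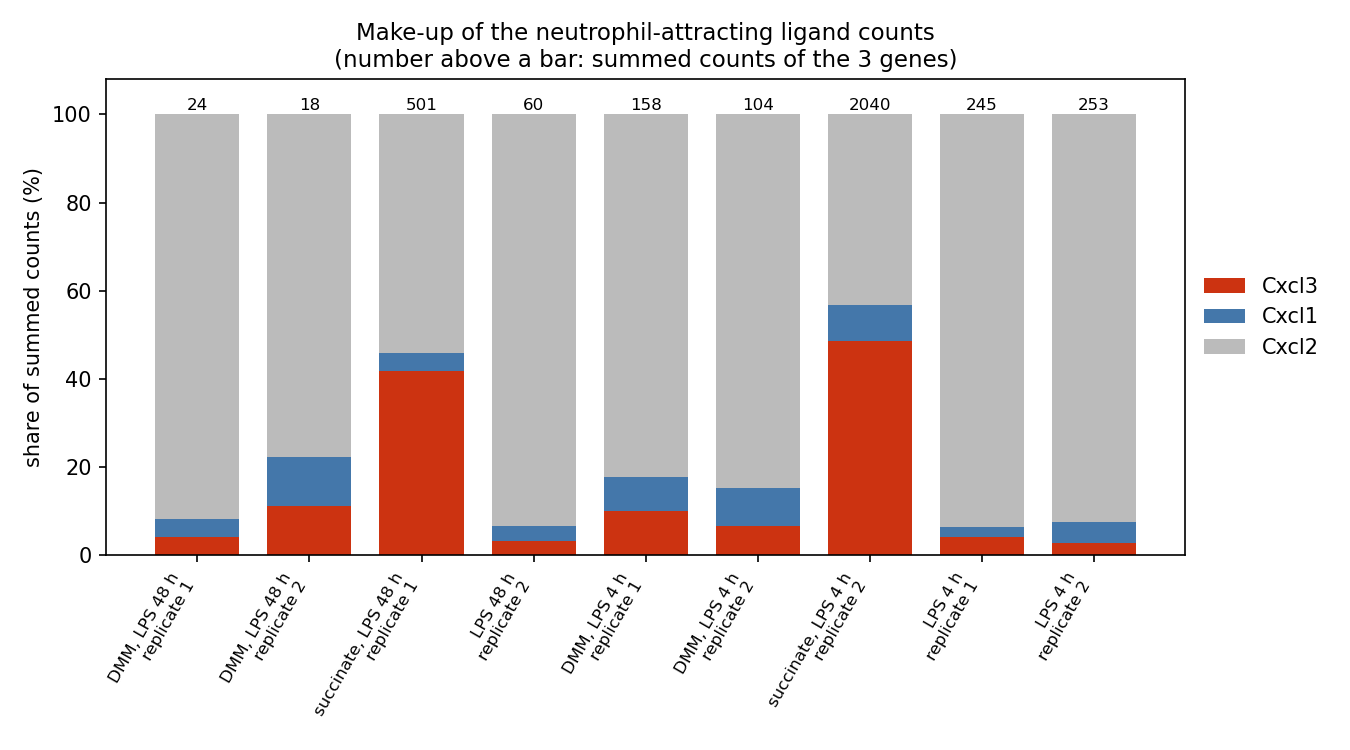
Share of the summed counts of Cxcl1, Cxcl2 and Cxcl3 taken by each gene in the 9 LPS-treated libraries, in percent, with the summed count above each bar. Cxcl3 gives 41.7% and 48.6% in the 2 libraries given succinate and then LPS, and at most 11.1% in the others.

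Longer transcripts give more reads, so levels were compared between genes per kilobase of spliced length. The longest protein-coding transcript of each gene was taken, with 1859 bases for Cxcl2, 1016 for Cxcl3, 953 for Cxcl1 and 588 for Pf4. Which transcripts the cells made was not tested. In the succinate-then-LPS library at 4 h, the levels per kilobase were 1256 CPM for Cxcl3, 611 CPM for Cxcl2, 341.5 CPM for Pf4 and 226 CPM for Cxcl1. With LPS alone at 4 h, Cxcl2 had 131 and 135 CPM per kilobase and stood above the others. There Cxcl1 had 6.71 and 13.5, Cxcl3 had 10.5 and 7.41, and Pf4 had 16.3 and 22.0 CPM per kilobase, so the ranges of Cxcl1 and Cxcl3 overlapped. At 48 h with succinate then LPS, Pf4 was highest per kilobase at 510.3 CPM, followed by Cxcl3 at 234, Cxcl2 at 166 and Cxcl1 at 25.04 CPM. Before division by length, Cxcl2 was highest in that library at 308 CPM, with Pf4 at 300.03 and Cxcl3 at 237.5 CPM. The order of these 3 genes therefore rests on the lengths taken. Of the stretches of 50 bases in the transcripts, 61 were common to Cxcl2 and Cxcl3, which is 3.37% of those of Cxcl2 and 6.31% of those of Cxcl3. Cxcl1 and Pf4 shared none with another gene, and how the authors counted reads matching more than 1 gene is not given in the sources used here.

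In the succinate-then-LPS cells, Cxcl1 and Cxcl3 were lower at 48 h than at 4 h. This comparison was added after the values were seen. Cxcl1 had 23.9 CPM at 48 h, against 215 CPM at 4 h, a log2 fold change of -3.16 ± 0.50 (adjusted p = 0.00576 by edgeR). Cxcl3 had 237.5 CPM at 48 h, against 1276 CPM at 4 h, a log2 fold change of -2.42 ± 0.40 (adjusted p = 0.00576 by edgeR). Cxcl2 had 308 CPM at 48 h, against 1135 CPM at 4 h, and did not pass (adjusted p = 0.325), though it did without a filter on low counts (0.0316). Of all genes tested, 0.0734% were called lower, and the limit set by the filter on low counts holds here too. The 2 libraries carry different replicate numbers, and with DESeq2 the adjusted p of Cxcl1 was 0.0621. With the library labelled LPS 48 h replicate 1 in the fit, neither gene passed (adjusted p = 0.649 for Cxcl1 and 1 for Cxcl3).

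A pair of neutrophil genes, Mmp8 and S100a8, were higher together with the ligands in the succinate-then-LPS libraries. The summed level of 14 neutrophil markers was 1167 CPM with succinate then LPS at 4 h, against 127 to 169 CPM with LPS alone, and 358 CPM at 48 h, against 80.1 CPM. Of the 14 markers, 3 were tested, and Mmp8, a collagenase, and S100a8, a calcium-binding protein, were called higher at both times. The third, Csf3r, was not called, though all 3 had an unadjusted p under 0.05 at each time. Such a p has no direction and does not show that Csf3r was higher. Against untreated cells, all 3 markers were called higher with LPS alone, where 12.5% of all genes were at 48 h and 15.4% at 4 h. Mmp8 had 586 CPM with succinate then LPS at 4 h, against 28.8 and 39.8 CPM with LPS alone. S100a8 had 560 CPM, against 41.6 and 66.7 CPM. Mmp8 and S100a8 together made up nearly all of the summed level with succinate then LPS at 4 h. The level left for the other markers, Csf3r among them, was on average lower there than with LPS alone. The defining neutrophil genes Ly6g, Ltf, Retnlg and Stfa2 held 0 counts in all 20 libraries. In bulk RNA, a change in the number of cells of a type and a change in RNA per cell cannot be told apart.

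DMM before LPS went with lower Cxcl2 at 4 h. Cxcl2 had 73.1 and 81.7 CPM with DMM then LPS at 4 h, against 244 and 252 CPM with LPS alone, and the groups did not overlap. The log2 fold change was -1.68 ± 0.35 (adjusted p = 0.0016 by edgeR). Cxcl2 was the 1 gene of the 4 called lower, where 10.5% of all genes tested were called lower. Without DMM then LPS 4 h replicate 1 the adjusted p was 0.0584, and with the library labelled LPS 48 h replicate 1 in the fit it was 0.257, at log2 fold changes of -1.59 and -1.67. Cxcl1 had 6.74 and 8.36 CPM with DMM then LPS, against 6.40 and 12.9 CPM with LPS alone, and Cxcl3 had 8.99 and 6.50 CPM, against 10.7 and 7.53 CPM. Both overlapped between the groups, with log2 fold changes of -0.37 ± 0.52 for Cxcl1 and -0.19 ± 0.47 for Cxcl3 (adjusted p = 0.683 and 0.842 by edgeR). The 95% exact counting interval of the ratio was 0.387 to 1.52 for Cxcl1 and 0.452 to 1.76 for Cxcl3. Whether either gene differed from Cxcl2 in its change was not tested.

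In the same comparison, 8 of 16 macrophage markers were called lower, among them Csf1r, Itgam and C1qa, and Dcn, a fibroblast gene, was called higher. The summed macrophage level was 90028 and 134161 CPM with DMM then LPS, against 140829 and 160972 CPM with LPS alone. The summed level of 6 fibroblast markers was 33.4 and 40.5 CPM, against 6.45 and 17.1 CPM. Of these 6 only Dcn was tested, and the highest level of any single one in the 20 libraries was 36.0 CPM. DESeq2 gave no adjusted p for Dcn here (unadjusted p = 0.0027). The neutrophil gene S100a8 was called higher, with 199.5 and 320 CPM with DMM then LPS, against 41.6 and 66.7 CPM with LPS alone. The summed level of the 14 neutrophil markers was 302 to 414 CPM, against 127 to 169 CPM. S100a8 made up most of that difference, so it was this gene that was higher where Cxcl2 was lower. The other 2 tested, Mmp8 and Csf3r, were not called. All 3 had an unadjusted p under 0.05, which has no direction and does not show that all 3 were higher. The part of these genes in the Cxcl2 difference was not tested.

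At 48 h, Cxcl2 had 17.8 and 13.2 CPM with DMM then LPS, against 54.1 CPM with LPS alone. Its log2 fold change of -1.79 ± 0.49 did not pass the test (adjusted p = 0.0763 by edgeR), and no gene of the 4 was called by edgeR, where 0.807% of all genes were called in either direction and 1 of the 4 had an unadjusted p under 0.05. It passed with DESeq2 (adjusted p = 0.0226), without a filter on low counts (0.0135) and without DMM library 2 (0.0484). Cxcl1 and Cxcl3 had 1 and 2 counts each in the DMM-then-LPS libraries, against 2 with LPS alone, at or below the floor. The difference between the DMM effects at 48 h and at 4 h was -0.11 ± 0.57 log2 units for Cxcl2 (adjusted p = 0.997 by edgeR). None of the 4 genes was called for it, where 0% of all genes were called, with 357 genes at an unadjusted p under 0.05 and 1 gene called by DESeq2.

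Under DMM then LPS, Cxcl2 was lower at 48 h (17.8 and 13.2 CPM) than at 4 h (73.1 and 81.7 CPM), a log2 fold change of -2.30 ± 0.41 (adjusted p = 0.00206 by edgeR). It was the 1 gene of the 4 called lower, where 0.338% of all genes were called lower. Without DMM then LPS 48 h replicate 2 the adjusted p was 0.0849, and with the library labelled LPS 48 h replicate 1 in the fit it was 0.547. Cxcl3 had 1 and 2 counts at 48 h, against 16 and 7 at 4 h, and did not pass (adjusted p = 0.0572). Cxcl1 had 1 and 2 counts at 48 h, against 12 and 9 at 4 h (adjusted p = 0.124).

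All 3 ligands were also higher with LPS at 4 h in DMM-treated cells. At 4 h, Cxcl2 was 79.1-fold higher with DMM then LPS than with DMM alone (exact counting interval 30.5 to 293), with adjusted p = 8.06e-11 by edgeR. Cxcl1 was at least 10.2-fold and Cxcl3 at least 11.1-fold higher, since both were at 0 with DMM alone, and these 3 genes were called, where 15.8% of all genes were called higher. At 48 h, Cxcl2 had 17.8 and 13.2 CPM with DMM then LPS, against 0, 2.98, 0 and 0 CPM with DMM alone (adjusted p = 1.33e-05 by edgeR). Cxcl3 was also called there by edgeR (adjusted p = 0.118 by DESeq2), but on 3 counts against 0, which is not above the floor, where 15.4% of all genes were called higher. Both comparisons were added after the values were seen. The interaction of DMM with LPS at 4 h called none of the 4 genes by edgeR or DESeq2, with 1 at an unadjusted p under 0.05, where 5.43% of all genes were called in either direction.

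Pf4 was highest in the same succinate-then-LPS libraries, but its levels elsewhere were ordered differently. It held counts in 9 of 11 unstimulated libraries and in every LPS-treated one. With succinate then LPS, Pf4 had 300.03 CPM at 48 h, against 7.72 CPM with LPS alone, and 201 CPM at 4 h, against 9.60 and 12.9 CPM with LPS alone. These were the 2 highest levels of Pf4 in the 20 libraries. The log2 fold changes were 5.26 ± 1.54 at 48 h and 4.14 ± 1.16 at 4 h, and neither passed the test (adjusted p = 0.329 and 0.2 by edgeR). Between the times, the succinate-then-LPS libraries gave a log2 fold change of 0.58 ± 1.12 for 48 h against 4 h (adjusted p = 1), where Cxcl1 and Cxcl3 fell.

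Pf4 levels moved with the numbers of the unstimulated columns. In cells given DMM alone, Pf4 had 7.92, 41.0, 5.85 and 67.8 CPM in libraries 1 to 4. Succinate alone had 2.35, 9.82, 2.08 and 11.7 CPM in libraries 1 to 4. Untreated cells had 0, 0 and 14.1 CPM in libraries 1, 3 and 4. Even-numbered libraries were higher than odd-numbered ones in all 3 treatments, with means of 54.4 against 6.89 CPM for DMM, 10.8 against 2.22 CPM for succinate and 14.1 against 0 CPM for untreated cells. What the numbers mark is not given in the sources used here.

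**Figure D4:**
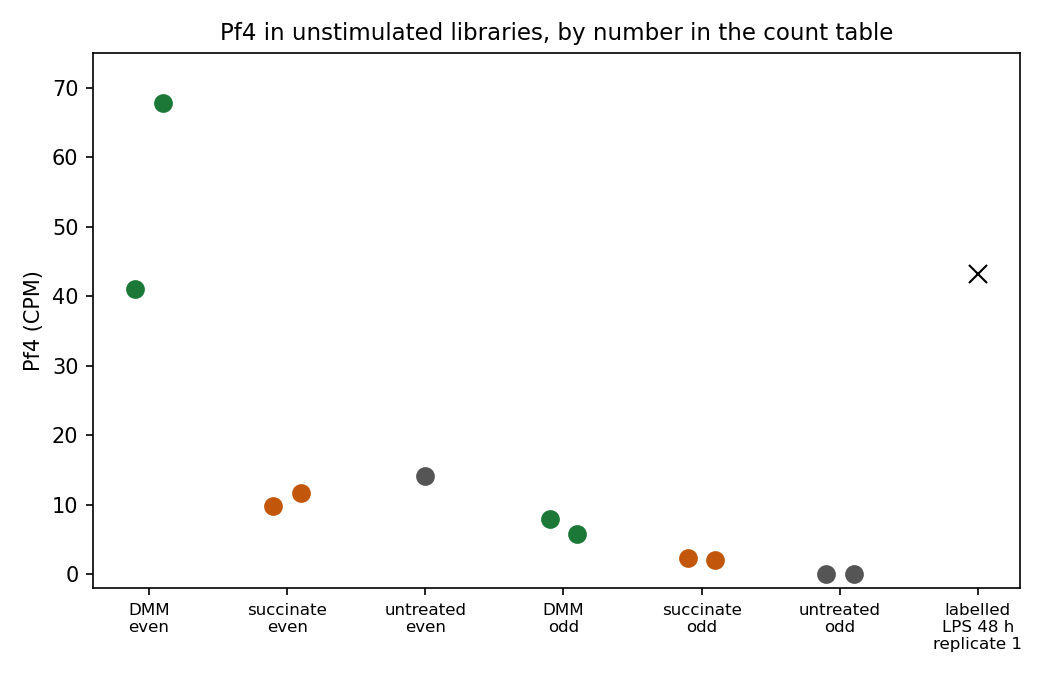
Pf4 level in CPM in each unstimulated library, split by even and odd number in the count table, with the library labelled LPS 48 h replicate 1 as a cross. Even-numbered libraries lie above odd-numbered ones of the same treatment, and the cross (43.2 CPM) lies among the even-numbered DMM libraries.

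With DMM alone against untreated cells, no gene of the 4 was called by edgeR or DESeq2, with 1 at an unadjusted p under 0.05, where 0.558% of all genes were called in either direction. Pf4 had a log2 fold change of 2.70 ± 1.05 there (adjusted p = 0.326). With DMM against succinate alone, Pf4 differed by 2.31 ± 0.87 (adjusted p = 0.489), and no gene of the 4 was called by edgeR or DESeq2, with 2 at an unadjusted p under 0.05, where 0.22% of all genes were called. With succinate alone against untreated cells none of the 4 genes was called or had an unadjusted p under 0.05, where edgeR called 0% of all genes, with 363 at an unadjusted p under 0.05 and 2 called by DESeq2.

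LPS alone against untreated libraries gave log2 fold changes of Pf4 of 0.64 ± 1.88 at 48 h and 1.17 ± 1.43 at 4 h (adjusted p = 0.851 and 0.61 by edgeR). Against the even-numbered untreated library alone the values were -0.86 and -0.33, of the other sign, and the odd-numbered ones were both at 0. In DMM-treated cells, Pf4 was 2.43 and 1.88 CPM at 48 h of LPS and 6.18 and 2.79 CPM at 4 h, against 5.85 to 67.8 CPM with DMM alone. Those log2 fold changes of -3.84 ± 1.38 and -2.73 ± 1.12 did not pass by edgeR (adjusted p = 0.0536 and 0.0807). The difference at 48 h passed with DESeq2 (adjusted p = 0.0299) and by edgeR without DMM library 1 (0.0409), DMM library 3 (0.0262) or untreated library 4 (0.0408), and that at 4 h passed without DMM library 3 (0.0391).

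A fit with the unstimulated groups split into odd and even numbers was made after these values were seen. With it the standard errors of Pf4 for succinate then LPS against LPS alone were 0.47 at 48 h and 0.36 at 4 h, beside 1.54 and 1.16 without it, at the same log2 fold changes. The split was chosen on the values of Pf4 itself and takes up their spread by construction, so it gives no test of Pf4.

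Pf4 is a product of megakaryocytes and platelets, so markers of those cells were looked at. Their summed level, over 14 genes without Pf4, was 0 to 20.4 CPM in the 20 libraries. It was 6.82 and 5.15 CPM in the libraries given succinate and then LPS for 48 h and 4 h, where Pf4 was highest. The platelet genes Ppbp, Gp9, Gp1bb, Gp5 and Clec1b, and the megakaryocyte factor Gata1, held 0 counts in every one of these libraries. The 1 marker tested, Vwf, was called lower by edgeR with LPS at both times (at 48 h the adjusted p was 0.021 by edgeR and 0.0706 by DESeq2), and it had 5.85 to 19.4 CPM in unstimulated libraries.

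The other CXC genes were mostly silent or moved differently. Of 11 other CXC ligands, Cxcl10, an interferon-induced attractant of T cells, and Cxcl16, a membrane-bound ligand of Cxcr6, were tested, and both were called higher with LPS alone at 48 h and 4 h. Cxcl10 had 2.27 CPM with succinate then LPS at 48 h, against 52.1 CPM with LPS alone, or 2 counts against 54, a ratio of 0.0436 (exact counting interval 0.00515 to 0.165, adjusted p = 0.0177 by edgeR). Each arm is 1 library, and DESeq2 gave no adjusted p for it (unadjusted p = 0.000719). Under DMM then LPS, Cxcl10 had 37.3 and 56.4 CPM at 48 h, against 7.31 and 2.79 CPM at 4 h, a log2 fold change of 3.06 ± 0.52 (adjusted p = 0.0011 by edgeR), while Cxcl2 fell. DESeq2 again gave no adjusted p (unadjusted p = 1.16e-05). Cxcl16 had 818 CPM with succinate then LPS at 48 h, against 701 CPM with LPS alone, and 448 CPM at 4 h, against 475 and 458 CPM, with neither passing the test. Cxcl5, another Cxcr2 ligand, never exceeded 2 counts in a library, and Ppbp held 0.

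Of 8 CXC receptors in the table, Cxcr4 was tested and was called lower with LPS. Cxcr4, the receptor of Cxcl12, had 0 CPM at 48 h and 0 to 3.2 CPM at 4 h of LPS alone, against 17.1 to 60.2 CPM in untreated cells. Cxcr2, the receptor of the 3 ligands, never exceeded 6 counts in a library, so it was not tested. Cxcr1 held 0.

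Genes that carry the LPS signal to NF-kB were looked at as a list. Of 26 genes of that list, 22 were tested, and 10 were called higher and 1 lower at 48 h of LPS alone, and 12 higher and 1 lower at 4 h. Over all genes tested, 12.5% were called higher with LPS alone at 48 h and 15.4% at 4 h. With succinate then LPS against LPS alone, 0 of the 22 were called at 48 h and 0 at 4 h by edgeR and by DESeq2, with 1 at an unadjusted p under 0.05 at each time. Of all 6812 genes, 38 and 70 were called in either direction there, so a count of 0 of 22 is near the background. The median log2 fold changes were -0.24 and 0.09, beside 0.01 and -0.03 over all genes tested. Nfkbia, the inhibitor of NF-kB and itself an NF-kB target, had 1301 CPM at 48 h and a mean of 1146 CPM at 4 h of LPS alone, against a mean of 47.1 CPM in untreated cells. With DMM then LPS against LPS alone at 4 h, 1 of the 22, Irak1, a kinase below Tlr4, was called lower by edgeR (adjusted p = 0.0197, and 0.0518 by DESeq2). At 48 h 0 were called by edgeR and by DESeq2, with 7 at an unadjusted p under 0.05. Of all genes, edgeR called 10.5% lower with DMM then LPS at 4 h, and 0.807% in either direction at 48 h. Genes of cytokines and adhesion molecules of neutrophil recruitment rose with LPS, with 5 of 5 tested called higher at both times. With succinate then LPS against LPS alone, 0 were called at either time by edgeR or DESeq2, nor any at an unadjusted p under 0.05. A count of 0 of 5 is again near the background there and does not show that these genes were unchanged. With DMM then LPS against LPS alone, Tnf and Icam1 were called lower at 4 h, and Il1b and Icam1 at 48 h. Of 9 tested genes that control the decay of such mRNAs, Zc3h12a, a nuclease that cuts inflammatory mRNAs, was called higher with LPS at both times and lower with DMM then LPS at 4 h. Zfp36l2, which binds AU-rich elements, was called lower with LPS at both times (at 48 h, adjusted p = 0.0153 by edgeR and 0.0669 by DESeq2), and Auh was called lower at 4 h (0.0406 by edgeR and 0.108 by DESeq2).

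The genes whose levels were most like each member over the 20 libraries were found by Pearson's r on log2(CPM + 1) among 5592 genes. The points share depth and treatment groups, so r is a description. For Cxcl1 they were Mmp9 (r = 0.935), Slc7a11 (0.917) and S100a8 (0.916), and for Cxcl3 they were Mmp9 (0.926), Alas1 (0.904) and Nucb1 (0.894). Mmp9, a gelatinase, had 3838 CPM with succinate then LPS at 4 h, against 155 and 139 CPM with LPS alone. For Cxcl2 they were Slpi (0.969), Gja1 (0.967) and Pilrb2 (0.965). Slpi, a secreted protease inhibitor, had 8866 CPM with succinate then LPS at 4 h, against 1846 and 1915 CPM with LPS alone. For Pf4 they were Dap (0.882), Tlr2 (0.842) and Ugt1a7c (0.826). Among the members, r was 0.97 between Cxcl1 and Cxcl3, 0.925 between Cxcl1 and Cxcl2, 0.867 between Cxcl2 and Cxcl3, and 0.458 to 0.638 between Pf4 and the others.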

How the data were processed

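The deposited table holds raw read counts for each gene symbol, in whole numbers. The labels' protocols describe direct lysis of the cells and full-length cDNA made by template switching and amplification. No molecular identifiers are named, so reads are not independent molecules and intervals cover counting error only. Not given in the sources used here are the genome build, annotation, strand setting and tool versions. TopHat2, Bowtie, HTSeq and edgeR are named, per the submitters' processing notes.

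The filter asked for the CPM worth 10 reads in a library of median size, reached in 2 or more libraries, and for 15 counts in all. This left 6812 genes in 20 libraries of 9 groups. Libraries were scaled by TMM, and CPM uses the scaled library size. Tests used edgeR 4.0.16 (quasi-likelihood, robust) in R 4.3.3 with 1 model of all 9 groups, 11 residual degrees of freedom and Benjamini-Hochberg adjustment over all genes. Groups of 1 library borrow the spread of the others. Standard errors are the log2 fold change over the root of F. Bounds use 3 counts over a group, and ratios with 1 to 3 counts in an arm have 95% exact counting intervals. The script was tested on simulated data.

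Alternatives were DESeq2 1.42.0, scaling by median of ratios, no low-count filter, all 21 libraries, a replicate block, and each library left out once. The split of unstimulated groups by number and 3 comparisons were added after the values were seen. Spliced lengths are those of the longest protein-coding transcript of each gene in the GENCODE annotation of GRCm38.

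All 4 genes are described in each comparison. Other genes come from lists of CXC ligands and receptors, NF-kB, mRNA decay, recruitment cytokines and cell type markers. Like genes are the 3 with the highest r whose highest group mean was 10 CPM or more. Members and lists were chosen with earlier results of these data known, and so was the exclusion of the library labelled LPS 48 h replicate 1.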

Additional observations from a re-analysis of the deposited data

Results flagged for a closer look

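Cxcl2 in cells given DMM alone had 2.98 CPM (4 counts) in library 2 and 0 in the other 3, which set that library far from the rest of its group. Of 8 groups of 4 libraries looked at, 1 was set apart in this way. The rule divides the largest gap by the range, so any count beside 3 libraries at 0 is set apart. Groups at 0 throughout, as Cxcl1 and Cxcl3 with DMM alone, could not be. The nominal rate of about 1 in 20 groups therefore does not hold for these counts, and the flag is no test.

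Pf4 had 43.2 CPM in the library labelled LPS 48 h replicate 1, against 0 to 14.1 CPM in untreated cells. That library is left out of the main fit and used only in the alternative with all 21 libraries. The 2 even-numbered DMM libraries had 41.0 and 67.8 CPM. In the same library Cxcl1 and Cxcl3 held 0 counts and Cxcl2 held 1.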

How the results depend on the processing

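Apart from leaving out libraries, 271 of 313 log2 fold changes of the 4 genes kept their direction and side of the threshold, as did 80 of 104 counts of them called, and none changed with median-of-ratios size factors. Leaving out 1 library at a time, 912 of 934 log2 fold changes did. The counts of the 4 genes called that moved by over 1.5 times, or to or from 0, were as follows. With DESeq2 they were 1 for LPS 48 h against LPS 4 h, 1 for DMM then LPS against LPS at 48 h and 1 for succinate then LPS at 48 h against 4 h. With no filter on low counts they were 1, for the first 2 of these and for DMM then LPS 48 h against DMM. With all 21 libraries they were 0 for DMM then LPS against LPS at 4 h, 0 for DMM then LPS at 48 h against 4 h, 1 for succinate then LPS against LPS at 48 h, 0 for succinate then LPS at 48 h against 4 h and 1 for DMM then LPS 48 h against DMM. With a replicate block, used though same-numbered 4 h libraries did not deviate together (r = 0.00042), they were 0 for succinate then LPS against LPS at 48 h (adjusted p = 0.367 for Cxcl2 and 0.0859 for Cxcl3), 0 for succinate then LPS at 48 h against 4 h (0.632 for Cxcl1 and 0.624 for Cxcl3) and 1 for DMM then LPS 48 h against DMM. With unstimulated groups split by number, which gives no test of Pf4, they were 1 for LPS 48 h against LPS 4 h, 1 for DMM then LPS against LPS at 48 h, 2 for DMM then LPS at 48 h against 4 h and 4 for succinate then LPS against LPS at 48 h. With odd numbers they were 2 for LPS 48 h against untreated, 1 for DMM against untreated, 1 for the interaction and 1 for DMM then LPS 48 h against DMM, and with even numbers 1 for DMM against succinate and 1 for the interaction. Leaving out a library gave 0 to 1 for DMM then LPS against LPS at each time and for DMM then LPS at 48 h against 4 h, and 1 to 3 for DMM then LPS 48 h against DMM. Smaller moves were to 2 with all 21 libraries and 4 with the split for succinate then LPS against LPS at 4 h, to 3 with no filter for that comparison at 48 h, to 3 with no filter and with the split for succinate then LPS at 48 h against 4 h, to 4 with odd numbers for LPS 4 h against untreated, and to 4 with even numbers for DMM then LPS 4 h against DMM. Leaving out a library gave 2 to 3 for LPS 4 h against untreated and for succinate then LPS against LPS at 4 h, and 2 to 4 for DMM then LPS 4 h against DMM. Log2 fold changes that reversed, none of them called, were Pf4 at 1.18 for LPS 48 h against 4 h with 21 libraries, the 48 h against 4 h difference of the DMM effect for Cxcl1 (0.82), Cxcl2 (0.86) and Cxcl3 (0.65) with 21 libraries and for Cxcl1 (0.26) and Cxcl3 (0.19) with the replicate block, and Pf4 with even numbers at -0.86 and -0.33 for LPS 48 h and 4 h and -0.37 for succinate, each against untreated. Leaving out libraries, that DMM difference ran from -0.75 to 0.29 for Cxcl1, -0.40 to 0.11 for Cxcl2, -0.93 to 0.11 for Cxcl3 and -0.93 to 0.19 for Pf4, DMM then LPS against LPS at 4 h from -0.79 to 0.21 for Cxcl1 and -0.47 to 0.078 for Cxcl3, Cxcl2 from -1.98 to 3.17 for DMM against untreated, 0 to 3.59 for DMM against succinate and -4.84 to 0.31 for the interaction, and Pf4 from -0.19 to 5.79 for succinate against untreated. The cause was not tested. Counts of all genes called over all alternatives, each library left out included, ran from 502 to 1509 for LPS 48 h against untreated (1414 as reported), 1 to 19 for LPS 48 h against 4 h (1), 30 to 337 (55) and 279 to 1230 (956) for DMM then LPS against LPS at 48 h and 4 h, 10 to 297 for DMM then LPS at 48 h against 4 h (80), 6 to 99 (38) and 8 to 131 (70) for succinate then LPS against LPS at 48 h and 4 h, 0 to 21 for succinate then LPS at 48 h against 4 h (7), 0 to 136 for DMM and 0 to 6 for succinate against untreated (38 and 0), 1 to 65 for DMM against succinate (15), 84 to 526 for the interaction (370) and 0 to 25 for the DMM difference (0). Genes with under 10 counts a library, as Cxcl1 and Cxcl3 with LPS alone at 48 h, can show only large differences at this depth.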
